A study of Mus musculus with 6 samples.

Results

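The genes described here are those by which a B lymphocyte is recognised and through which its antigen receptor signals. A list of 38 genes was taken by name, with earlier results of these data known. Of the 38, 28 had an array entry annotated to that gene alone and were analysed among 14860 genes. Of the 28, 13 encode surface proteins, 7 signalling proteins, 4 transcription factors and 4 proteins grouped here as receptor assembly and recombination. Rag1 and Cd24a shared an entry with another gene, and Lyn, Bank1, Ighm, Ighd, Fcmr, Cd38, Spib and Ikzf3 were not analysed here.

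Splenocytes were enriched for Sca-1, a surface protein of primitive blood cells that some mature lymphocytes also carry, by a magnetic separator, and RNA from each of 6 mice was measured on 1 Affymetrix exon array. Every animal carried both transgenes, NRASD12 and BCL-2, in the FVB/N strain, and modelled acute myeloid leukaemia. ABT-737, a BH3 mimetic that inhibits BCL-2, BCL-XL and BCL-W, had been given to 3 mice at 75 mg/kg, 3 times weekly over 33 days, and the 3 control mice were untreated per the series description, although the labels print the dosing text with every sample. The promoters of the transgenes and the ages of the mice are not given in the sources used here, and each array represents a single animal. Ly6a, which encodes Sca-1, was not analysed here. Of the B cell markers, Cd79a, Cd79b, Ms4a1 and Pax5 had log2 signals of 10.61 or more in every mouse.

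A B cell holds its antigen receptor in the membrane as an immunoglobulin paired with the signalling chains CD79A and CD79B. Kinases such as LYN, BLK, SYK and BTK relay the signal through the adaptor BLNK to phospholipase C gamma and PI3-kinase, while co-receptors such as CD22, CD72 and the CD21 complex raise or lower the threshold. EBF1 and PAX5 establish and keep the B cell programme, which is lost when a cell becomes a plasma cell. The receptor genes are first assembled in progenitors by the RAG recombinase and terminal deoxynucleotidyl transferase.

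Arrays differed within the treated group. On the first principal component, which took 44.1% of the variance over all genes, the ABT-737 mice 1, 2 and 3 scored -7.42, 32.2 and 28.1, and the control mice -15.0, -21.0 and -16.9. ABT-737 mouse 1 thus lay nearer to the controls than to the other treated mice. Control mouse 3 had low Y-linked signals, at 4.77 log2 for Kdm5d and 4.23 for Eif2s3y, where the other 5 mice ranged from 8.05 to 10.27. All treated mice were among those 5, so the control group, unlike the treated group, was mixed in Y-linked signal. The part of this in the B cell differences was not tested. Correlations between arrays over all genes ran from 0.977 to 0.992.

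Most B cell genes had lower mean signals after ABT-737, and the low signals were those of 2 of the 3 treated mice. Mean signal was lower in 22 of the 28 genes, against 55.3% of all genes tested. The median difference was -0.41 on the log2 scale, treated minus control, against -0.02 over all genes tested. That median was -0.74 without ABT-737 mouse 1 and -0.21 without ABT-737 mouse 2. None of the 28 passed an adjusted p of 0.05 by limma, where the smallest was 0.283, and 0% of all genes passed. At an unadjusted p under 0.05, 5 of the 28 were lower (Fcrla, Ms4a1, Cd72, Cd180 and Blk), against 4.45% of all genes, and 2 were higher (Vpreb3 and Cd55), against 5.75%. In 4 genes (Fcrla, Ms4a1, Cd72 and Cd79b) every treated mouse lay below every control, against 7.19% of all genes, and in Vpreb3 every treated mouse lay above, against 6.14%. The number lower at an unadjusted p under 0.05 was 16 without ABT-737 mouse 1, 3 without ABT-737 mouse 2, control mouse 1 or control mouse 3, and 2 without ABT-737 mouse 3. The share of all genes at that p was not counted in these fits. In bulk RNA of this kind, fewer B cells and less of these RNAs per B cell cannot be told apart.

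**Figure D1:**
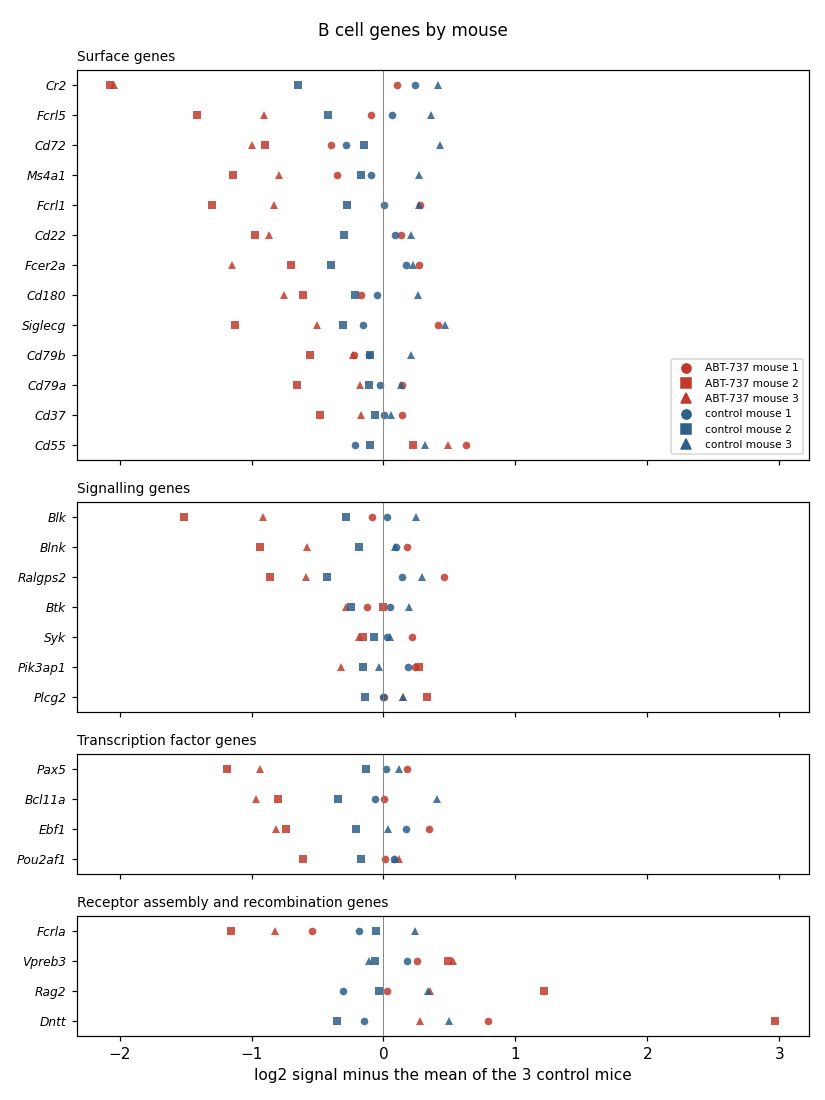
Log2 signal of each of the 28 genes in each mouse, minus the mean of the 3 control mice (horizontal axis), by class; red marks are ABT-737 mice and blue marks control mice, with a circle, square or triangle for mouse 1, 2 or 3. In most surface and transcription factor genes the red squares and triangles lie left of all blue marks, while the red circle lies among the blue marks in 5 of 13 surface and 2 of 4 transcription factor genes and right of all of them in 5 and 2; Dntt of ABT-737 mouse 2 stands far to the right.

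The mice can be read one by one. In 20 of the 28 genes both ABT-737 mouse 2 and ABT-737 mouse 3 lay below all 3 controls, as did 11.9% of all genes. ABT-737 mouse 1 lay at or above the lowest control in 24 of the 28 (62.4% of all genes), and above every control in 13 (2528 of 14860 genes). The lowest signal of the 6 mice was that of ABT-737 mouse 2 in 15 genes (20.2% of all genes) and of ABT-737 mouse 3 in 8 (2197 of 14860 genes). The highest signal was that of control mouse 3 in 12 genes (11.1% of all genes) and of ABT-737 mouse 1 in 10 (9.25%). The spread between treated mice exceeded that between controls in 24 of 28 genes, with a median SD of 0.46 in ABT-737 mice and 0.24 in control mice, while over all genes it was larger in 58.9%, with median SDs of 0.18 and 0.16.

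Without ABT-737 mouse 1, which leaves 2 treated mice against 3 controls, 8 of the 28 genes passed an adjusted p of 0.05 by limma over all genes, and all 8 fell. These were Pax5, Cr2, Fcrla, Blk, Ms4a1, Cd22, Fcrl1 and Ebf1, against 0.35% of all genes lower and 3.08% higher in the same fit. Leaving out any other single mouse gave 0 calls among the 28. Because mouse 1 lay at or above the lowest control in 24 of the 28 genes, its removal widens most of the differences by construction. The largest fall was that of Cr2, at -2.06 (SE 0.30, adjusted p = 0.0132, 4.16-fold lower), and Pax5 had the smallest adjusted p, at -1.06 (SE 0.15, adjusted p = 0.0125, 2.08-fold lower).

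**Figure D2:**
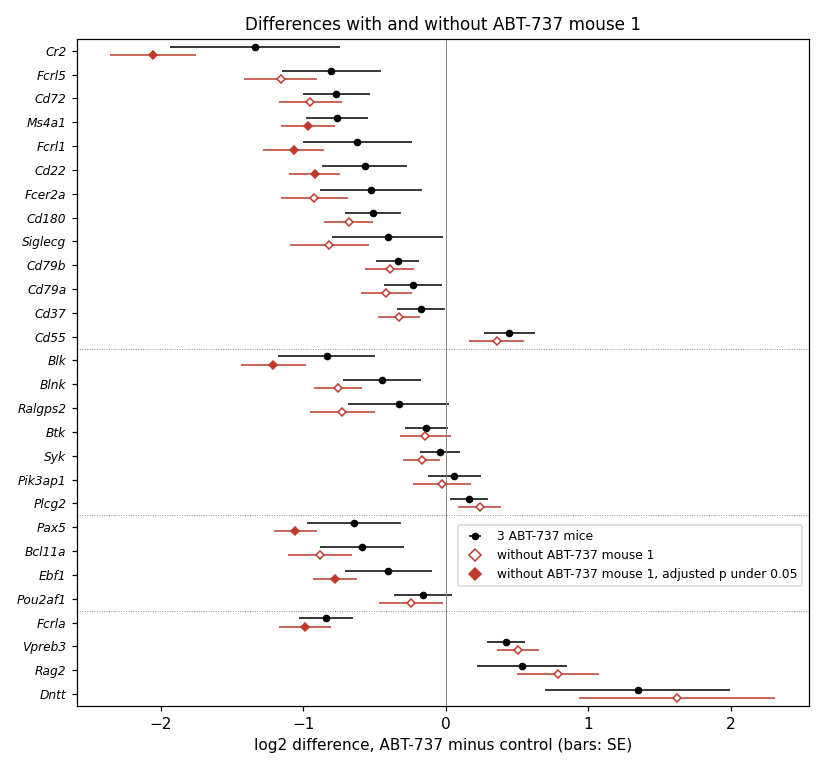
Log2 difference of each gene, ABT-737 minus control, with its standard error, over all 6 mice (black circles) and without ABT-737 mouse 1 (red diamonds, filled where the adjusted p is under 0.05). Cr2 moves from -1.34 with all mice to -2.06 without mouse 1, and the filled diamonds are the 8 genes named in the text, all left of 0.

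Sequence upstream of the start sites was examined for 3 short motifs, in the 250 bases before each RefSeq start of assembly GRCm38.p6 and on both strands. Of the 28 genes 25 had a window, and Cd79b, Ms4a1 and Blk had none. The octamer ATGCAAAT, read by OCT factors together with the coactivator that Pou2af1 encodes, was found before Blnk and Vpreb3, 2 of the 25, against 1.83% of the 11894 tested genes with a window. GAGGAAGT, a site of the related factors PU.1 and SPI-B, was found before Cd37, Cd72 and Fcrl1, 3 of the 25, against 2.59%. CCCNNGGG, the core of the EBF1 site, was found before Cd22 and Cd55, 2 of the 25, against 16.7%. The pieces that hold a match follow, so that genes with a motif in common can be set side by side. Mean signal was lower in Blnk and higher in Vpreb3, which share the octamer. It was lower in Cd22 and higher in Cd55, which share the EBF1 core with different middle letters. It was lower in all 3 genes with the PU.1 site, which are surface genes, and 12 of the 13 surface genes were lower. Each piece held 1 match, so no motifs overlapped, and capitals mark it. Each reads 5′ to 3′ along the strand of its gene, where ATTTGCAT is the octamer and ACTTCCTC the PU.1 site read on the other strand.
Blnk, chr19:40994324-40994371, minus strand: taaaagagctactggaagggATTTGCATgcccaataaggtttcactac
Vpreb3, chr10:75948235-75948282, plus strand: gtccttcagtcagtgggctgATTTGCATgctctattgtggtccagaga
Cd37, chr7:45238840-45238884, minus strand: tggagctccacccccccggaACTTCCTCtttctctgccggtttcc
Cd72, chr4:43454648-43454695, minus strand: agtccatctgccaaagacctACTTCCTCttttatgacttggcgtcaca
Fcrl1, chr3:87376352-87376386, plus strand: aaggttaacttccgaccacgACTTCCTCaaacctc
Cd22, chr7:30879049-30879096, minus strand: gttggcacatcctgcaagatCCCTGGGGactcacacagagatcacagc
Cd55, chr1:130462822-130462869, minus strand: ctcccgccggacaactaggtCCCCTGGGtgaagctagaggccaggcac
In Blnk and Vpreb3 the octamer reads in reverse, 130 and 45 bases before the start at its first base, and the 3 PU.1 matches read in reverse as well, 25 bases before the start in Cd37, 49 in Cd72 and 15 in Fcrl1. These matches are letters in a window and were not tested as binding sites. The octamer genes Blnk (-0.45) and Vpreb3 (0.42) differed in opposite directions.

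Surface genes gave the lowest median of the 4 classes. Signals were lower in 12 of 13, against 55.3% of all genes, with a median difference of -0.52, and Cd55 was the exception. The median was -0.92 without ABT-737 mouse 1, -0.37 without ABT-737 mouse 2 and -0.39 without ABT-737 mouse 3, and -0.41 without control mouse 3. Ms4a1, which encodes CD20, had log2 signals of 11.87, 11.08 and 11.43 in ABT-737 mice 1, 2 and 3, against 12.13, 12.05 and 12.49 in control mice 1, 2 and 3. All treated mice lay below all controls, and the difference was -0.76 (SE 0.22, 95% interval -1.28 to -0.25, adjusted p = 0.358 by limma). Cd72, a co-receptor that dampens receptor signalling, had 10.16, 9.66 and 9.56 in ABT-737 mice, against 10.28, 10.41 and 10.99 in control mice. Again the groups did not overlap, with ABT-737 mouse 1 just under the lowest control, and the difference was -0.77 (SE 0.23, adjusted p = 0.374).

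Cd180, a Toll-like receptor homologue of B cells, had 12.29, 11.85 and 11.70 in ABT-737 mice, against 12.41, 12.24 and 12.72 in control mice. ABT-737 mouse 1 lay above control mouse 2, so the groups overlapped, and the difference was -0.51 (SE 0.19, adjusted p = 0.446). Cr2, the complement receptor CD21 of follicular and marginal zone B cells, had the most negative mean difference of the 28 genes. It had 11.23, 9.06 and 9.09 in ABT-737 mice, against 11.37, 10.48 and 11.54 in control mice, a difference of -1.34 (SE 0.60, adjusted p = 0.514). ABT-737 mice 2 and 3 were below every control by more than 1 log2 unit, while ABT-737 mouse 1 lay between controls. Cr2 was singled out after its values were seen.

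The signalling chains of the receptor itself differed least among the lower surface genes, together with the tetraspanin gene Cd37. Cd79b had 13.29, 12.95 and 13.28 in ABT-737 mice, against 13.40, 13.41 and 13.72 in control mice, and the groups did not overlap (difference -0.34, SE 0.15, adjusted p = 0.514). Its partner Cd79a had 13.49, 12.69 and 13.17 in ABT-737 mice, against 13.32, 13.24 and 13.48 in control mice. Here ABT-737 mouse 1 was the highest of the 6 mice and ABT-737 mouse 2 the lowest, and the difference was -0.23 (SE 0.21, 95% interval -0.71 to 0.25). Cd37 averaged 12.69 ± 0.31 in ABT-737 mice and 12.86 ± 0.06 in control mice (SD, n = 3 each). Without ABT-737 mouse 1 the differences were -0.40 for Cd79b, -0.42 for Cd79a and -0.33 for Cd37, with adjusted p values of 0.351, 0.345 and 0.378 by limma. Leaving out ABT-737 mouse 2 instead gave -0.23 for Cd79b and -0.02 for both Cd79a and Cd37, so the Cd79a and Cd37 differences rested largely on that mouse.

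The other inhibitory and Fc-related surface genes followed the pattern of Cr2 with smaller sizes. Cd22, a sialic-acid-binding inhibitor of the receptor, averaged 10.72 ± 0.61 in ABT-737 mice and 11.29 ± 0.27 in control mice, and its relative Siglecg 10.00 ± 0.78 in ABT-737 mice and 10.41 ± 0.41 in control mice. Fcer2a, the low-affinity IgE receptor CD23, averaged 9.89 ± 0.73 in ABT-737 mice and 10.42 ± 0.34 in control mice. In each of these the treated SD was the larger and ABT-737 mouse 1 lay within or above the controls. The Cd22 difference of -0.57 was -0.92 without ABT-737 mouse 1 and -0.37 without ABT-737 mouse 2. That of Siglecg, -0.41 with all mice, was -0.82 without ABT-737 mouse 1, -0.05 without ABT-737 mouse 2 and -0.18 without control mouse 3. For Fcer2a the difference of -0.52 became -0.92 without ABT-737 mouse 1 and -0.21 without ABT-737 mouse 3. The Fc receptor-like genes Fcrl1 and Fcrl5 differed by -0.62 (SE 0.38) and -0.80 (SE 0.35), or -1.07 and -1.16 without ABT-737 mouse 1 and -0.28 and -0.50 without ABT-737 mouse 2. Cd55, which encodes the complement regulator decay-accelerating factor and is made by many cell types, had 10.81, 10.41 and 10.67 in ABT-737 mice, against 9.97, 10.08 and 10.50 in control mice. It was higher by 0.45 (SE 0.18, adjusted p = 0.460), with control mouse 3 overlapping the treated mice.

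**Figure D3:**
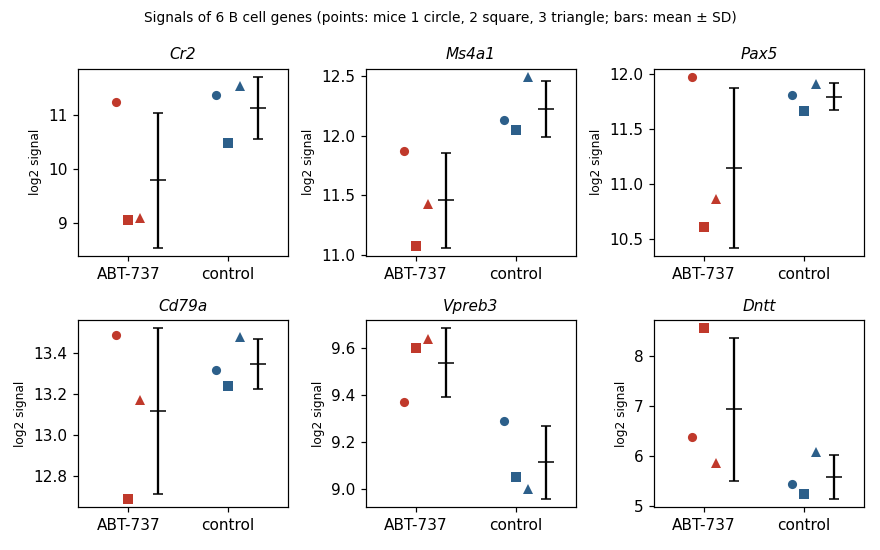
Log2 signals of Cr2, Ms4a1, Pax5, Cd79a, Vpreb3 and Dntt in 3 ABT-737 mice (red, left) and 3 control mice (blue, right), with the mean ± SD of each group in black; each panel has its own axis, which does not start at 0. The groups separate for Ms4a1 and Vpreb3, ABT-737 mouse 1 (circle) lies among the controls for Cr2 and above them for Pax5 and Cd79a, and Dntt reaches 8.55 in ABT-737 mouse 2.

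Signalling genes differed less than surface genes. Of 7 measured, 5 were lower, against 55.3% of all genes, with a median difference of -0.14. That median was -0.26 without control mouse 2, -0.07 without ABT-737 mouse 2, -0.06 without ABT-737 mouse 3 and -0.04 without control mouse 3. Blk, a SRC-family kinase of B cells, had 10.98, 9.56 and 10.16 in ABT-737 mice, against 11.10, 10.79 and 11.32 in control mice. ABT-737 mice 2 and 3 lay below all controls and mouse 1 within them, and the difference was -0.84 (SE 0.34, adjusted p = 0.467), or -1.21 (SE 0.23, adjusted p = 0.0365) without ABT-737 mouse 1 and -0.50 without ABT-737 mouse 2. Blnk, the adaptor that links SYK to BTK and phospholipase C, had 11.33, 10.22 and 10.57 in ABT-737 mice, against 11.25, 10.97 and 11.24 in control mice. ABT-737 mouse 1 was the highest of all, and the difference was -0.45 (SE 0.27, adjusted p = 0.647), or -0.76 without that mouse and -0.20 without ABT-737 mouse 2.

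Of the other signalling genes, Syk, Btk, Plcg2 and Pik3ap1 showed small differences. Myeloid cells also use several of these genes, and which cells gave the signals was not tested. Syk, the kinase that binds the phosphorylated CD79 chains, had 11.63, 11.26 and 11.23 in ABT-737 mice, against 11.44, 11.34 and 11.46 in control mice. Btk, the TEC-family kinase downstream of it, had 9.24, 9.36 and 9.08 in ABT-737 mice, against 9.41, 9.12 and 9.56 in control mice. Both pairs of groups overlapped, with differences of -0.04 (95% interval -0.37 to 0.29) for Syk and -0.14 (95% interval -0.49 to 0.21) for Btk. Syk was -0.17 without ABT-737 mouse 1, 0.02 without ABT-737 mouse 2 and 0.03 without ABT-737 mouse 3, so its direction depended on single mice. Btk stayed below 0 in each such fit, between -0.26 without control mouse 2 and -0.04 without control mouse 3. Plcg2, the phospholipase C of the pathway, had 10.51, 10.83 and 10.65 in ABT-737 mice, against 10.50, 10.36 and 10.65 in control mice. Its groups overlapped too, at 0.16 (SE 0.13), or 0.08 without ABT-737 mouse 2. Pik3ap1, the PI3-kinase adaptor BCAP, differed by 0.06 (SE 0.19), turning to -0.04 after quantile normalization and to -0.03 without ABT-737 mouse 1, to -0.04 without ABT-737 mouse 2 and to -0.02 without control mouse 2. Ralgps2, an exchange factor for RAL proteins, differed by -0.33 (SE 0.36), or -0.73 (SE 0.23, adjusted p = 0.175) without ABT-737 mouse 1 and -0.07 without ABT-737 mouse 2.

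All 4 measured transcription factor genes had lower means, against 55.3% of all genes, with a median difference of -0.50. That median was -0.83 without ABT-737 mouse 1 and -0.31 without ABT-737 mouse 2. Pax5, the factor that commits cells to the B lineage, had 11.97, 10.61 and 10.86 in ABT-737 mice, against 11.81, 11.66 and 11.91 in control mice. ABT-737 mouse 1 was the highest of the 6 mice, while mice 2 and 3 stood well below controls that differed little among themselves, and the difference was -0.65 (SE 0.33, adjusted p = 0.571), or -0.38 without ABT-737 mouse 2. Ebf1, which acts before Pax5 in B cell development, had 11.87, 10.79 and 10.71 in ABT-737 mice, against 11.70, 11.32 and 11.56 in control mice. The order of mice was alike, with mouse 1 highest and mice 2 and 3 below all controls, and the difference was -0.40 (SE 0.31, adjusted p = 0.737), or -0.78 (SE 0.16, adjusted p = 0.0447) without ABT-737 mouse 1, -0.24 without ABT-737 mouse 2 and -0.20 without ABT-737 mouse 3.

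Bcl11a, a zinc finger factor of early lymphoid cells and B cells, had 9.61, 8.80 and 8.64 in ABT-737 mice, against 9.54, 9.26 and 10.01 in control mice. ABT-737 mouse 1 lay between controls, and the difference was -0.59 (SE 0.29, adjusted p = 0.561), or -0.88 without that mouse and -0.38 without control mouse 3. Pou2af1, the octamer coactivator that B cells and plasma cells both express, had 12.08, 11.46 and 12.19 in ABT-737 mice, against 12.15, 11.90 and 12.16 in control mice. Only ABT-737 mouse 2 stood below the controls, in contrast to Pax5, Ebf1 and Bcl11a. The difference was -0.16 (SE 0.21), and 0.07 without ABT-737 mouse 2 and -0.30 without ABT-737 mouse 3.

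Genes grouped as receptor assembly and recombination did not share one direction, which rests on the placing of Fcrla in this class. Of the 4, 3 were higher (Vpreb3, Rag2 and Dntt) and Fcrla was lower, and the median difference was 0.48, or 0.29 without ABT-737 mouse 2. Fcrla, an Fc receptor-like protein kept inside B cells, had 10.23, 9.62 and 9.95 in ABT-737 mice, against 10.59, 10.72 and 11.01 in control mice. All treated mice lay below all controls, and this gene had the smallest p of the 28, with a difference of -0.84 (SE 0.19, 95% interval -1.28 to -0.40, adjusted p = 0.283 by limma). Vpreb3, which assists receptor assembly within the cell, had 9.37, 9.60 and 9.64 in ABT-737 mice, against 9.29, 9.05 and 9.0 in control mice. It was the 1 gene of the 28 with every treated mouse above every control, by 0.42 (SE 0.13, adjusted p = 0.387).

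Dntt, which encodes terminal deoxynucleotidyl transferase and is active in lymphoid progenitors, had 6.37, 8.55 and 5.86 in ABT-737 mice, against 5.43, 5.23 and 6.08 in control mice. The value of ABT-737 mouse 2 stood more than 2 log2 units above the next highest mouse, and ABT-737 mouse 3 lay below control mouse 3, so the difference of 1.35 (SE 0.65, adjusted p = 0.545) did not separate the groups and was 0.54 without ABT-737 mouse 2. Rag2, a subunit of the recombinase, had 3.92, 5.11 and 4.24 in ABT-737 mice, against 3.58, 3.86 and 4.23 in control mice. Its highest value was again that of ABT-737 mouse 2, but every value lay under 5.78, the mean signal below which the dimmest 30% of genes fell, and the difference was 0.53 (SE 0.32, adjusted p = 0.637), or 0.19 without that mouse. The Dntt signals of control mice 1 and 2 also lay under 5.78.

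Other genes of early B cell stages and of the receptor pathway were set beside these. Of 14 listed pro-B and pre-B genes 11 were analysed, with 7 higher and 4 lower, against 44.7% of all genes higher, and a median difference of 0.14. Vpreb1, Vpreb2 and Igll1 of that list were not analysed here. At an unadjusted p under 0.05, Bst1 and Erg were higher by 2.10 (SE 0.31) and 0.84 (SE 0.34), and Flt3, a receptor of progenitors, differed by -0.72 (SE 0.26). Bst1, a surface enzyme that bone marrow stroma and myeloid cells also carry, had 9.70, 10.99 and 10.48 in ABT-737 mice, against 8.41, 8.09 and 8.36 in control mice. The groups lay more than 1 log2 unit apart, and the adjusted p was 0.198 by limma. The mean of the pro-B and pre-B list relative to the controls was 0.07, 0.59 and 0.25 in ABT-737 mice 1, 2 and 3, and 0.13, -0.14 and 0.02 in the control mice. The mouse highest in Dntt and Rag2 was thus also highest in this mean, but not in every gene. Bst1, Erg, Cd93, Myb, Arpp21 and Rgs2 were highest in ABT-737 mouse 2. Lef1 and Smarca4 were highest in ABT-737 mouse 1, and Flt3, Sox4 and Il7r in control mouse 1. Which cells gave these signals was not tested.

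Of 36 further genes of the receptor pathway 31 were analysed, and their differences ran from -0.43 to 0.72. Of these, 17 were lower and 14 higher, or 54.8% lower, near the 55.3% of all genes. The median difference was -0.07 against -0.02 over all genes, and 0 passed an adjusted p of 0.05 by limma. At an unadjusted p under 0.05, 0 were lower and 5 were higher, against 5.75% of all genes higher, and in 5 of the 31 every treated mouse lay above every control, against 6.14%. Those higher at that p were the exchange factor Vav3 at 0.72 (SE 0.19), the PI3-kinase subunits Pik3cg at 0.50 (SE 0.18) and Pik3cd at 0.41 (SE 0.16), the calcium channel Orai1 at 0.35 (SE 0.13) and the adaptor Dok3 at 0.38 (SE 0.16), all of which act in myeloid cells or T cells as well. Of 25 other B cell genes 20 were analysed, and 16 of these were lower, against 55.3% of all genes, with a median of -0.34. Of the 20, 6 were lower and 0 higher at an unadjusted p under 0.05, against 4.45% and 5.75% of all genes. They included Ccr6, Cd83 and Cxcr5 at -1.29, -1.19 and -1.18 (SE 0.32, 0.28 and 0.28), a chemokine receptor, an activation marker and the receptor for follicle homing, and the kinase-like gene Pxk at -0.37 and the factor Irf8 at -0.74.

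**Figure D4:**
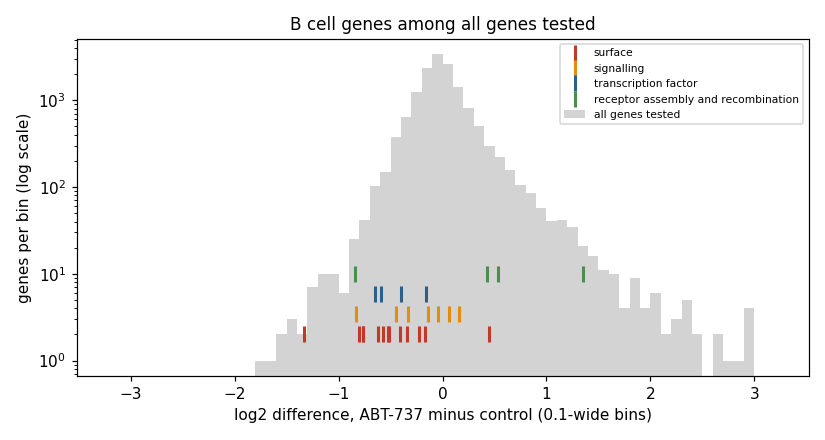
Number of genes per 0.1-wide bin of log2 difference, ABT-737 minus control, over all 14860 genes (grey bars, log axis), with the B cell genes as coloured ticks by class; the height of the ticks has no meaning. Of the 28 ticks 22 lie left of 0, the leftmost is Cr2 at -1.34 and the rightmost is Dntt at 1.35.

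Markers of several other cell types differed in the same mice. Over all genes tested, 55.3% had lower and 44.7% higher means, which is the background for the counts of direction below. The mean of the 13 surface genes relative to the controls was 0.07, -0.90 and -0.69 in ABT-737 mice 1, 2 and 3, and -0.03, -0.25 and 0.28 in the control mice. For the 16 granulocyte markers, of which 12 were higher, it was 0.39, 1.22 and 1.46 in ABT-737 mice, and 0.28, 0.19 and -0.47 in control mice, and their summed linear signals were 67336 to 121833 in ABT-737 mice and 45854 to 74555 in control mice. All 7 erythroid markers had higher means, with list means of -0.54, 0.83 and 1.68 in ABT-737 mice, and 0.21, -0.06 and -0.16 in control mice, and summed signals of 1370 to 8245 in ABT-737 mice and 1707 to 2520 in control mice. The monocyte and macrophage markers had higher means in 12 of 13, 4 of them (Hmox1, Slc40a1, Cd14 and Cd68) at an unadjusted p under 0.05 by limma, against 5.75% of all genes. Their list means were 0.16, 0.87 and 0.62 in ABT-737 mice, and -0.14, -0.21 and 0.35 in control mice, and their summed signals 16446 to 27781 in ABT-737 mice and 12485 to 18806 in control mice. Of the 16 granulocyte markers, 10 were higher at an unadjusted p under 0.05 by limma, against 5.75% of all genes. In 8 of the 16 every treated mouse, mouse 1 included, lay above every control, against 6.14% of all genes. Those 8 included Cxcr2 (2.93), Mmp9 (2.91), Mmp8 (2.71), Csf3r (1.83) and Itgam (1.73). The 4 granulocyte markers with lower means were Prtn3, Mpo, Ctsg and Elane, 0 of them at that p. Control mouse 3, highest of the 6 mice in the surface genes, was above ABT-737 mouse 1 in the monocyte and macrophage markers. ABT-737 mice 2 and 3, lowest in the surface genes, had the highest list means for granulocyte, erythroid and monocyte markers. NK cell markers did not follow those mice, with 5 of 6 lower and list means of -0.62, 0.17 and -0.72 in ABT-737 mice, and 0.13, -0.001 and -0.13 in control mice. Their summed signals were 662 to 1368 in ABT-737 mice and 1222 to 1925 in control mice. Of the 6, 2 were lower at an unadjusted p under 0.05 by limma, against 4.45% of all genes. These were Gzmb at -1.48 (SE 0.52), with overlapping groups, and Prf1 at -0.53 (SE 0.17), with every treated mouse below every control. Dendritic cell markers were lower in 4 of 7, with list means of -0.08, 0.31 and -0.20 in ABT-737 mice, and -0.07, -0.23 and 0.31 in control mice, and summed signals of 923 to 1214 in ABT-737 mice and 873 to 1362 in control mice. T cell markers differed less as a list, with 10 of 14 lower and list means of 0.01, -0.20 and -0.36 in ABT-737 mice, and 0.17, -0.01 and -0.16 in control mice. Their summed signals were 19286 to 25191 in ABT-737 mice and 21060 to 27296 in control mice. Icos was the 1 T cell marker lower at an unadjusted p under 0.05 by limma, against 4.45% of all genes, at -1.17 (SE 0.24). It had 10.29, 10.26 and 9.97 in ABT-737 mice, against 11.79, 11.41 and 10.82 in control mice. All treated mice, mouse 1 included, thus lay below all controls for Icos. No marker was at 0, since the lowest value of the table was 2.6 log2. The part of these markers in the B cell differences was not tested.

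**Figure D5:**
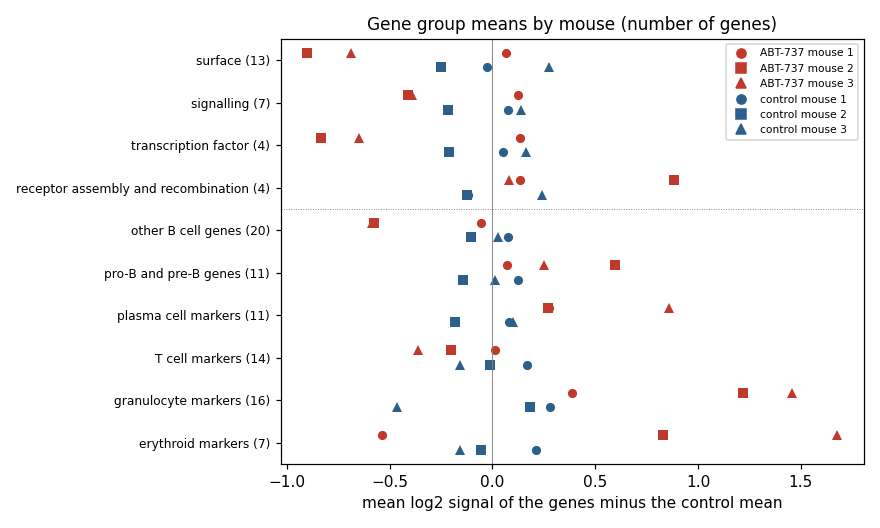
Mean log2 signal of each gene group in each mouse, relative to the mean of the control mice, with the number of genes in brackets; red marks, drawn above, are ABT-737 mice and blue marks control mice, with a circle, square or triangle for mouse 1, 2 or 3. ABT-737 mice 2 and 3 lie at -0.90 and -0.69 for surface genes and at 1.22 and 1.46 for granulocyte markers, and ABT-737 mouse 1 at 0.07 and 0.39.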

How the data were processed

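The deposited values were log2 signals per array entry, as read from the values themselves (2.6 to 14.3), made from biotin-labelled RNA per the labels' protocols. The authors' genome build was mm9 per the submitters' processing notes, and how they normalised, summarised or filtered the signals is not given in the sources used here. No scanner files were used, so no background signal is known, and precision is limited by the number of arrays.

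Of 23332 entries, 14996 carried 1 gene symbol, and the entry with the highest mean was kept per gene, leaving 14860 genes. No B cell gene of the list had more than 1 such entry. Groups came from the treatment labels, and mice were numbered in accession order. In R 4.3.3, limma 3.58.1 gave each difference, ABT-737 minus control, by lmFit and eBayes, two-sided, with Benjamini-Hochberg adjustment over all genes at 0.05. The fit was tested on simulated data. The p-values rest on the spread between separate animals.

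The genes and lists were chosen with earlier results of these data known. All analysed members are named. Signals of each mouse are given for the 3 of each class with the smallest p, for Cd79a, Cd79b, Ms4a1, Pax5, Ebf1, Btk, Syk, Rag2 and Dntt, and, chosen after values were seen, for Cr2, Cd55 and Pou2af1. From other lists, at most 5 genes with an unadjusted p under 0.05 are named, and, chosen after values were seen, Prtn3, Mpo, Ctsg, Elane, Prdm1, Mzb1 and Irf4. The 11 analysed pro-B and pre-B genes are all named. Promoter sequences are from RefSeq (GRCm38.p6), and figures were drawn with matplotlib 3.10.9. Alternatives were quantile normalization, centring, leaving out the dimmest 30% of genes, averaging the entries of a gene, trended or robust variance, array weights, and leaving out each mouse.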

Additional observations from a re-analysis of the deposited data

How the results depend on the processing

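No gene of the 28 passed an adjusted p of 0.05 under any alternative except without ABT-737 mouse 1, so that leaving out each mouse gave 0 to 8 calls. The number lower at an unadjusted p under 0.05, 5 with all mice, was 8 with trended variance and 11 with array weights, and 2 to 16 when each mouse was left out. The share of all genes lower at that p was not counted in these alternatives, so whether it moved as well is not known. The number with all treated mice below all controls, 4 with all mice, was 2 after centring, and 4 to 20 when each mouse was left out, with 9 without control mouse 2. The 20 were those without ABT-737 mouse 1, where 11.9% of all genes lay below all controls. That share was not counted after centring or without control mouse 2. Medians kept their sign under every alternative run, at -0.92 to -0.37 for surface, -0.26 to -0.04 for signalling, -0.83 to -0.31 for transcription factor and 0.29 to 0.65 for assembly and recombination genes when each mouse was left out, and the signalling median was -0.23 with array weights. Of 363 single-gene values in the 13 alternatives, 348 kept direction and side of the threshold, 8 newly passed and 7 changed sign. Much of this was fixed in advance. With 0 calls in the main fit none could be lost. Trended or robust variance, leaving out dim genes and averaging entries also left the differences of these genes as they were. The sign changes were Pik3ap1 at -0.041 after quantile normalization, and -0.028, -0.043 and -0.017 without ABT-737 mouse 1, ABT-737 mouse 2 and control mouse 2, Syk at 0.017 and 0.032 without ABT-737 mice 2 and 3, and Pou2af1 at 0.065 without ABT-737 mouse 2. When each mouse was left out these genes spanned -0.043 to 0.252, -0.168 to 0.032 and -0.300 to 0.065. Leaving out a mouse changes the number of samples, and the cause of the other changes was not tested. Rag2 had no value without the dimmest 30% of genes. No paired analysis was possible because no mouse number is shared by both groups.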

Other observations

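Plasma cell markers differed in the opposite direction to the B cell genes. Of 12 listed 11 were analysed, 10 were higher and 1 was lower, against 44.7% of all genes higher, with a median difference of 0.33. At an unadjusted p under 0.05 by limma 4 were higher, against 5.75% of all genes. Prdm1 (0.14), Mzb1 (0.03) and Irf4 (-0.11) differed little. Sdc1, the plasma cell surface marker CD138 that some other cells also carry, had 9.45, 9.40 and 10.37 in ABT-737 mice, against 8.48, 8.01 and 8.60 in control mice, and every treated mouse lay above every control (difference 1.38, SE 0.29, adjusted p = 0.277). Tnfrsf17, the receptor BCMA, had 7.79, 8.10 and 9.22 in ABT-737 mice, against 7.28, 6.68 and 6.94 in control mice (difference 1.40, SE 0.36, adjusted p = 0.331). The list mean relative to the controls was 0.28, 0.27 and 0.86 in ABT-737 mice 1, 2 and 3, so ABT-737 mouse 1, which lay at or above the lowest control in 24 of the 28 B cell genes, lay above their 0.08, -0.18 and 0.10 here. The summed linear signals of the list were 19564 to 27988 in ABT-737 mice and 15338 to 18946 in control mice.

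Genes of marginal zone, B1 and memory cells were mixed, with 5 of 12 lower, against 55.3% of all genes, and a median of 0.13. S1pr3, a sphingosine phosphate receptor that holds marginal zone B cells in place, had 9.58, 8.90 and 8.70 in ABT-737 mice, against 10.57, 10.23 and 10.88 in control mice. All treated mice, mouse 1 included, lay below all controls, with a difference of -1.50 (SE 0.26, adjusted p = 0.241). Cd9, a tetraspanin of marginal zone B cells, plasma cells and platelets, was higher by 1.25 (SE 0.27, adjusted p = 0.281), and Plac8 differed by -0.46 (SE 0.19, adjusted p = 0.472).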
